A study of Mus musculus with 6 samples.

Results

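The genes described here code for parts of the sodium pump and for proteins that work beside it. They are 2 beta subunits of the pump (Atp1b1, Atp1b3), 4 members of the FXYD family (Fxyd1, Fxyd2, Fxyd3, Fxyd5) and the sodium-potassium-chloride cotransporter Slc12a2. They were chosen by name, as the rows whose Ensembl identifier maps to these 7 symbols, and each symbol matched 1 row of the 52550 genes listed. The sequenced cells were liver cells of CD-1 mouse embryos of genotype Sox9-GFP, in which green fluorescent protein reports the transcription factor SOX9, and they were sorted for that fluorescence. Each of 2 stages, E16.5 and E18.5, has 3 libraries with the letters A, B and C, and the labels call the cells cholangiocytes, the epithelial cells of bile ducts. The labels give the stages as embryonic days 16 and 18, and the names E16.5 and E18.5 are those of the study. Every library carried the same transgene and received no treatment, each came from a pool of 15 livers, and blood cells carrying lineage antigens were removed with antibodies before the sort. The study measured ion transporters in these cells because fluid drawn by osmosis is one candidate force for opening a bile duct lumen. Beside the replicate letter, stage is the only factor that the labels give to separate the libraries.

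The sodium pump is a P-type ATPase that uses ATP to move sodium out of the cell and potassium into it. Its alpha subunit does the transport, its beta subunit is a glycosylated partner that the alpha subunit needs to leave the endoplasmic reticulum and reach the plasma membrane, and FXYD proteins are small membrane proteins that bind the pump and adjust its affinity for ions. The sodium gradient the pump makes drives SLC12A2 (NKCC1), which carries chloride into secretory epithelia across the basolateral membrane, and bile duct cells secrete chloride, bicarbonate and water into bile.

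The FXYD proteins are named for a signature of 4 residues that follows a proline in most of them. The coding stretches that hold it are shown so that the 4 genes can be compared within this core and around it. Capitals mark the 15 coding bases of the proline and the signature, with 8 codons of flank on either side, 5′ to 3′ on the coding strand, read from the GENCODE vM21 transcripts.
Fxyd1: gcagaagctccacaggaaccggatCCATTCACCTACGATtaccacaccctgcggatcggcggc
Fxyd2: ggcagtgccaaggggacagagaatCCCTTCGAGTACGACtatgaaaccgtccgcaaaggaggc
Fxyd3: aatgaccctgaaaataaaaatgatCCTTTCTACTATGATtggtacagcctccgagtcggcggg
Fxyd5: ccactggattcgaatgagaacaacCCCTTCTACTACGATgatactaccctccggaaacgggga
The variable residue of the signature is threonine in Fxyd1, glutamate in Fxyd2 and tyrosine in Fxyd3 and Fxyd5. Between pairs of these genes, 10 to 13 of the 15 capital bases are identical, and 29 to 38 of the whole 63. The signature begins at codon 28 of 92 in Fxyd1, codon 16 of 64 in Fxyd2 and codon 29 of 88 in Fxyd3. In Fxyd5 it begins at codon 135 of 179, so that 74.9% of the coding sequence lies before it, against 23.4% to 31.8% in the other 3.

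On the mouse genome GRCm38, Fxyd5 (chr7:31032722-31042481), Fxyd1 (chr7:31051678-31057199) and Fxyd3 (chr7:31068172-31076704) are neighbours on the minus strand of chromosome 7, with Fxyd7 between Fxyd5 and Fxyd1. Fxyd2 (chr9:45399669-45410278) follows Fxyd6 on the plus strand of chromosome 9. Atp1b3 (chr9:96332655-96364442, minus strand) lies elsewhere on chromosome 9, Atp1b1 (chr1:164437109-164458355, minus strand) on chromosome 1 and Slc12a2 on chromosome 18. The values used here are TPM over all exons of a gene, made by the authors from read counts, and the values of a library sum to 1000000. The exons of Atp1b1 share 575 bases (18.7%) with Nme7 on the opposite strand, and those of Fxyd3 share 2059 bases (42.5%) with Lgi4. The kit kept strand, but the strand setting of the count is not given in the sources used here, so reads in these overlaps may not be told apart. Nme7 had 235 to 516 reads where Atp1b1 had 3050 to 9777, and Lgi4 had 7 to 18 reads where Fxyd3 had 3 to 27.

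The reads recovered from the values, for 49584 of the 52550 genes, came to between 23194636 and 26208053 per library at E16.5. At E18.5 they came to between 13094974 and 22645365. All 8 cholangiocyte markers were present in every library, with Sox9 at 69.5 to 186 TPM at E16.5 and 353 to 466 TPM at E18.5. Their geometric mean was lowest in library E16.5-C (49.5 TPM), was 129 and 141 TPM in E16.5-A and E16.5-B, and was 269 to 362 TPM at E18.5. The sorted cells also held abundant transcripts of the hepatocyte lineage, since the geometric mean of 8 hepatoblast markers was 2475 to 2986 TPM at E16.5 and 607 to 1428 TPM at E18.5, lowest in E18.5-B. The 7 megakaryocyte markers, all above 0 in every library, summed to 3143 to 9180 TPM at E16.5 and 84.6 to 723 TPM at E18.5. The 4 mesothelial markers went from 1.58 to 8.02 TPM to 29.1 to 66.9 TPM, and the 5 pancreatic acinar markers, of which Pnlip was at 0 in 2 libraries, summed to 2352 TPM in E16.5-A, to 213 and 67.3 TPM in E16.5-B and E16.5-C, and to 4.64 to 44.7 TPM at E18.5. Of the other lists, the 7 mesenchymal markers summed to 88.9 to 208 TPM at E16.5 against 204 to 580 TPM at E18.5, the 7 leukocyte markers to 29.1 to 38.9 TPM against 58.5 to 78.9 TPM, and the 6 endothelial and 7 erythroid markers overlapped between the stages. The 5 pancreatic endocrine markers summed to at most 64.0 TPM, with Ins2, Gcg and Neurod1 at 0 in 1 or more libraries. In bulk samples such as these, fewer cells of a type and less RNA per cell cannot be told apart.

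The stages were compared with limma on log2(TPM + 1) for the 22452 genes whose mean reached 1 TPM. Of the 7 genes, 6 entered this test and Fxyd3 did not. The pump's main beta subunit gene Atp1b1 and the FXYD gene Fxyd2 rose between E16.5 and E18.5, and these 2 were the only ones of the 6 with an adjusted p under 0.05 (limma, Benjamini-Hochberg over all genes tested). Of all genes tested, 26.0% rose by the same rule and 5.22% fell. The median log2 difference of the 6 was 0.73 and that of all genes tested was 0.42, so every value below is to be read against a general shift of 0.42 toward higher TPM at E18.5. With median-of-ratios scaling, which brings that median to 0.01, the share of called genes that were higher went from 83.3% to 38.1%, and Atp1b1 and Fxyd2 remained past the threshold. Within single genes, an exact permutation test of 3 libraries against 3 cannot give a two-sided p below 0.1. The sources do not state whether the 3 libraries of a stage came from separate pools, so all p-values measure the spread between these libraries.

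**Figure D1:**
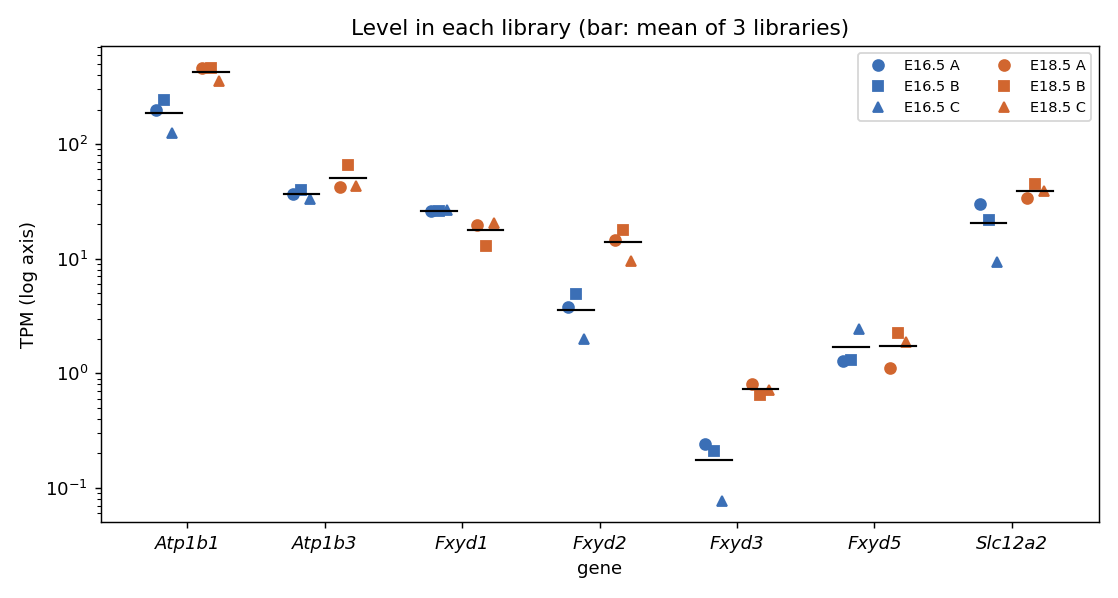
TPM of the 7 genes (log axis) in each of 6 libraries, blue for E16.5 and orange for E18.5, with a symbol per replicate and a black bar at the mean of 3 libraries. Atp1b1 lies above all others in both stages, Fxyd3 lies below all others, and the stages overlap only for Fxyd5. Of all genes tested, 53.3% had stages that did not overlap, and Fxyd3, with 3 to 27 reads a library, was not tested.

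Atp1b1 encodes the beta-1 subunit, the usual beta subunit of the pump in epithelia. Libraries A, B and C held 200, 240 and 124 TPM of it at E16.5, whereas those of E18.5 held 464, 464 and 356 TPM. The lowest E18.5 library thus lay above the highest E16.5 library, a separation of the stages that 53.3% of all genes tested showed in one direction or the other. Its mean went from 188 ± 58.9 TPM (SD, n = 3) to 428 ± 62.4 TPM (SD, n = 3), 2.28-fold, and it rose by 1.22 on the log2 scale (SE 0.25, adjusted p = 0.0167, limma). At E18.5 its level exceeded that of 99.4% of protein-coding genes. Relative to the median of all genes the rise was 0.81, and it was 0.76 with median-of-ratios scaling (adjusted p = 0.0471, limma). It no longer passed without E18.5-A (1.16, adjusted p = 0.0604, limma) or without E18.5-B (1.16, adjusted p = 0.0504, limma).

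Atp1b3 encodes the beta-3 subunit, which is found in many tissues. Its levels were 36.7, 39.7 and 33.5 TPM in the E16.5 libraries A, B and C, against 42.4, 65.0 and 43.4 TPM in those of E18.5. Library E18.5-B stood above the other two of its stage, and the lowest E18.5 value was 2.69 TPM above the highest E16.5 value. The means were 36.6 ± 3.09 and 50.3 ± 12.8 TPM (SD, n = 3 each). The log2 difference was 0.42 (95% interval -0.02 to 0.86, adjusted p = 0.117, limma), which equals the median of all genes to within 0.01, and with median-of-ratios scaling it was -0.03. Without E18.5-B it was 0.23 (adjusted p = 0.248, limma).

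The balance of the beta subunits was then compared inside each library, where scaling between libraries plays no part. Atp1b1 was 5.44, 6.06 and 3.71 times the level of Atp1b3 in libraries A, B and C of the earlier stage. In those of the later stage the ratio was 11.0, 7.14 and 8.21. Every E18.5 ratio was above every E16.5 ratio, with mean log2 ratios of 2.31 ± 0.37 and 3.11 ± 0.31 (SD, n = 3 each), a difference of 0.80 (two-sided exact permutation p = 0.1, the smallest possible). The other beta subunit gene of the pump that was measured at some level, Atp1b2, had means of 3.81 and 4.001 TPM.

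**Figure D2:**
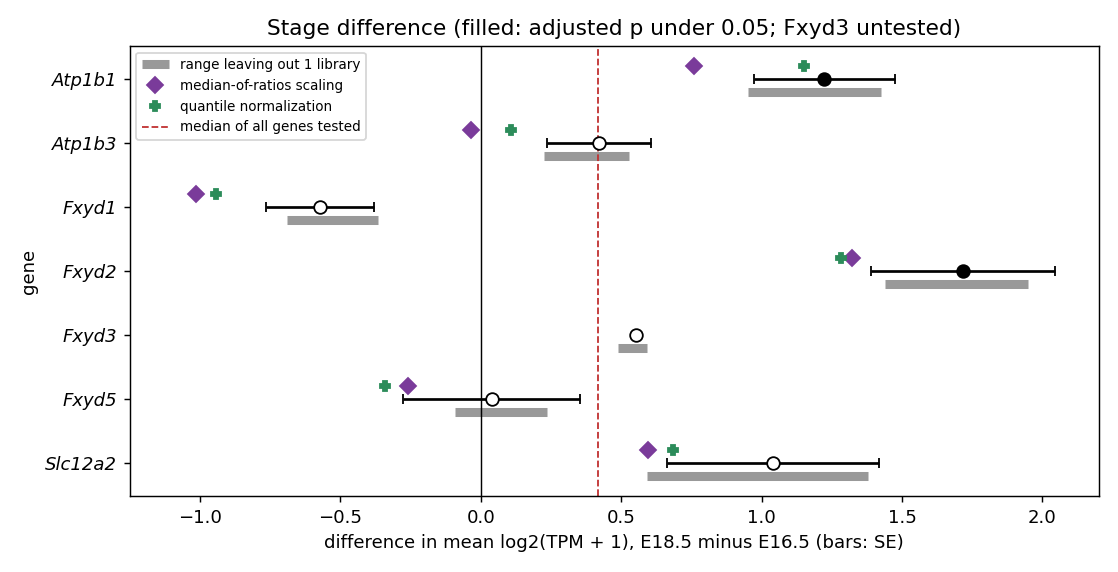
Difference in mean log2(TPM + 1), E18.5 minus E16.5, for the 7 genes; circles with bars are the value and its SE, filled where the adjusted p is under 0.05, diamonds and crosses are values with median-of-ratios and quantile scaling, and grey bars span the values with 1 library left out. Atp1b1, Fxyd2 and Slc12a2 stay right of zero under all of these, and Fxyd1 stays left of it. Atp1b3 crosses it with median-of-ratios scaling, and Fxyd5 sits around it. Fxyd3 was not tested and has no SE.

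Among the FXYD genes, Fxyd2 was higher at E18.5 and Fxyd1 was lower in every E18.5 library than in any E16.5 library. Fxyd2 encodes the gamma subunit of the pump, best known from kidney tubules. Its levels were 3.82, 4.93 and 2.003 TPM in E16.5 libraries A, B and C, then 14.5, 17.6 and 9.53 TPM in those of E18.5, from 64 to 398 reads a library. The stages did not overlap, and the library with the letter C was the lowest of each stage. The means were 3.58 ± 1.48 and 13.9 ± 4.09 TPM (SD, n = 3 each), 3.88-fold apart, and Fxyd2 rose by 1.72 on the log2 scale (SE 0.33, adjusted p = 0.0145, limma). Relative to the median of all genes this is 1.30, and with median-of-ratios scaling it was 1.32 (adjusted p = 0.0287, limma). It no longer passed without E18.5-A (1.67, adjusted p = 0.0556, limma).

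Fxyd1 encodes phospholemman, known as a phosphorylated regulator of the pump in heart and skeletal muscle. Its E16.5 libraries lay close together at 26.0, 26.2 and 26.7 TPM, and its E18.5 libraries had 19.7, 12.8 and 20.6 TPM. E18.5-B was the lowest, and it was also the library with the lowest hepatoblast markers. The means were 26.3 ± 0.39 and 17.7 ± 4.28 TPM (SD, n = 3 each), and the log2 difference was -0.57 (SE 0.19, adjusted p = 0.0594, limma), which did not pass the threshold. It passed with median-of-ratios scaling (-1.02, adjusted p = 0.0350), with quantile scaling (-0.94, adjusted p = 0.0352), with voom on the recovered reads (-0.74, adjusted p = 0.0307) and among genes whose mean reached 5 TPM (-0.57, adjusted p = 0.0470), all by limma. It passed in none of the 6 fits that left out 1 library, and without E18.5-B the difference was -0.37 (adjusted p = 0.102, limma).

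Fxyd3 and Fxyd5 were low. Fxyd3, first known as Mat-8 from mammary tumours, was seen in 10, 8 and 3 reads of E16.5 libraries A, B and C, and in 27, 16 and 14 reads of the E18.5 ones. As TPM these are 0.24, 0.21 and 0.08, against 0.81, 0.65 and 0.71, so the stages did not overlap at these low levels. The 95% exact (Clopper-Pearson) interval, which covers counting error only, was 0.12 to 0.44 TPM for E16.5-A and 0.54 to 1.18 TPM for E18.5-A. Those of E18.5-B (0.37 to 1.05 TPM) and E18.5-C (0.39 to 1.19 TPM) overlapped those of E16.5-A and E16.5-B (0.09 to 0.42 TPM). That of E16.5-C (0.02 to 0.23 TPM) lay below those of all E18.5 libraries. E16.5-C was at the limit of 3 reads. With the filter on low values removed, its log2 difference was 0.55 (adjusted p = 0.0919, limma).

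Fxyd5 encodes dysadherin, which is known to reduce adhesion between cells. The E16.5 libraries had 1.28, 1.32 and 2.45 TPM, those of E18.5 had 1.12, 2.24 and 1.88 TPM, from 32 to 82 reads a library. The stages overlapped throughout, and the log2 difference was 0.04 (95% interval -0.71 to 0.78, adjusted p = 0.931, limma), a sign that turned with median-of-ratios (-0.26) and quantile scaling (-0.34). Its highest library was E16.5-C, where Atp1b1, Fxyd2 and Slc12a2 had their lowest values.

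Together the 7 Fxyd genes of the mouse summed to 36.9 ± 1.31 TPM in the earlier stage and to 48.4 ± 3.06 TPM in the later one (SD, n = 3 each). Fxyd1 made up 72.7%, 68.3% and 72.8% of this sum in E16.5 libraries A, B and C, but 39.9%, 28.5% and 40.6% in those of E18.5, a difference of -34.9 percentage points. Fxyd2 made up 10.7%, 12.9% and 5.46% at E16.5 and 29.4%, 39.3% and 18.8% at E18.5, a difference of 19.5 points. Fxyd3 stayed a minor part in both stages, with means of 0.479% and 1.495%. The shares of these 3 did not overlap between the stages and each gave a two-sided exact permutation p of 0.1, the smallest possible, whereas that of Fxyd5 overlapped (4.56% and 3.65%, exact permutation p = 0.7). Of the other family members, Fxyd4 rested at means of 3.45 and 7.02 TPM (adjusted p = 0.0622, limma). Fxyd6, known from the nervous system, rose from 1.02 to 4.12 TPM (log2 difference 1.38, adjusted p = 0.0260, limma), a call that did not hold with median-of-ratios or quantile scaling. Fxyd7, also known from the nervous system, had means of 0.73 and 3.13 TPM on 1 to 15 reads a library (1.30, adjusted p = 0.0250, limma), and it entered the test only through its E18.5 libraries. Its call likewise did not hold with median-of-ratios (adjusted p = 0.0765, limma) or quantile scaling.

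**Figure D3:**
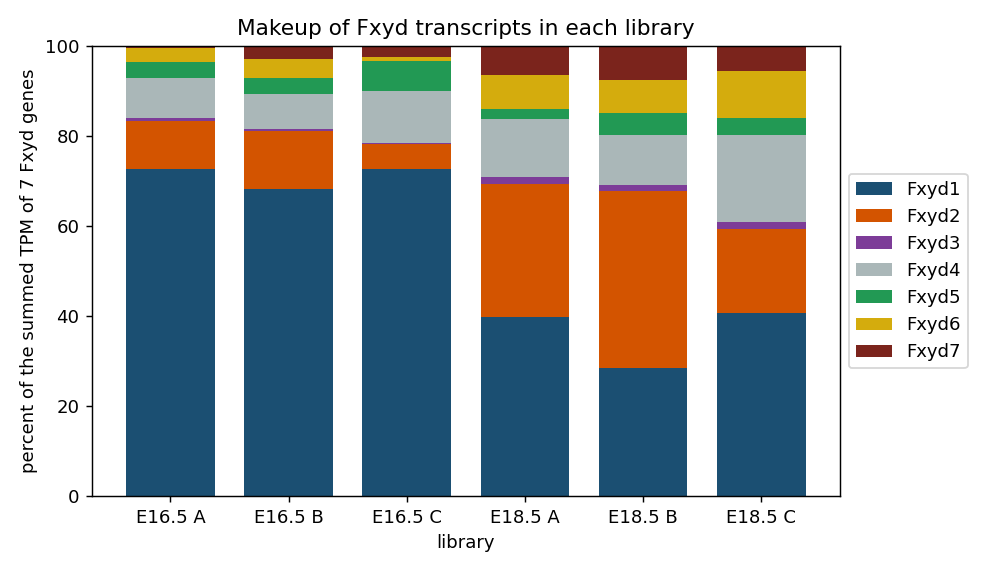
Share of each Fxyd gene in the summed TPM of all 7, in percent, for the 3 libraries of E16.5 (left) and of E18.5 (right). Fxyd1 takes 68.3% to 72.8% of each E16.5 bar and 28.5% to 40.6% of each E18.5 bar, and Fxyd2 takes 5.46% to 12.9% and 18.8% to 39.3%.

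The order of the FXYD genes depends on the length that reads are divided by. The summed exons of the gene are 3.53 times as long as its principal transcript for Fxyd1, 6.34 times for Fxyd2 and 5.22 times for Fxyd5, but 1.68 times for Fxyd3 and 1.194 to 1.198 times for the beta subunits. Divided by the principal transcript, the level of Fxyd1 was 92.7 ± 1.37 at E16.5 and 62.5 ± 15.1 at E18.5, and that of Fxyd2 was 22.7 ± 9.36 and 88.1 ± 25.9 (in TPM of the deposited scale, SD, n = 3 each). Fxyd1 was then above Fxyd2 at E16.5 but below it at E18.5, where their TPM over all exons had the opposite order (17.7 and 13.9 TPM). On either scale the E18.5 means differed by less than the sum of their SDs. This length applies alike to all libraries, so the TPM ratio of a single gene between stages is the same on either scale, although a difference in log2(TPM + 1) is not. The shares of the Fxyd sum given above also rest on the summed exons, and their size changes with the length used. From recovered reads without length correction, the stage difference in share was -35.15 points for Fxyd1 and 24.8 points for Fxyd2. Which transcripts the cells made was not measured here.

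Of the 7 genes, Slc12a2 had the largest spread among the E16.5 libraries (SD of log2(TPM + 1) 0.81). Libraries A, B and C held 30.03, 21.6 and 9.44 TPM of it in the earlier stage, then 33.6, 45.0 and 39.2 TPM, on 491 to 1679 reads. The stages did not overlap, yet E16.5-A was only 3.53 TPM below the lowest E18.5 library, and the E16.5 libraries spanned 3.18-fold. The means were 20.4 ± 10.4 and 39.2 ± 5.69 TPM (SD, n = 3 each) and the log2 difference was 1.04 (SE 0.38, 95% interval 0.15 to 1.93, adjusted p = 0.0719, limma), which did not pass the threshold. Of the alternatives run, it passed only in the one without E16.5-A (1.38, adjusted p = 0.0430, limma). Without E16.5-C the difference was 0.59 (adjusted p = 0.0817, limma), and with median-of-ratios scaling it was 0.60 (adjusted p = 0.248, limma).

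Slc12a2 made up 19.1%, 14.5% and 8.18% of the summed TPM of the 9 Slc12 genes at E16.5 and 15.3%, 19.8% and 21.1% at E18.5, and these shares overlapped (13.9% ± 5.50 and 18.7% ± 3.001, SD, n = 3 each, two-sided exact permutation p = 0.2). The sum itself was 141 ± 22.2 and 211 ± 21.9 TPM. The member of the family with the highest level was Slc12a7 (KCC4), a potassium-chloride cotransporter that moves chloride out of cells, with 65.3 ± 3.99 and 92.5 ± 16.2 TPM (log2 difference 0.48, adjusted p = 0.0495, limma). Slc12a4 (KCC1) had 31.4 and 39.6 TPM (0.34, adjusted p = 0.132, limma). Slc12a5 (KCC2) rose as well (2.01 to 3.93 TPM, 0.71, adjusted p = 0.0462, limma), but neither it nor Slc12a7 was called with median-of-ratios or quantile scaling.

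Atp1b1, Atp1b3, Fxyd2 and Slc12a2 were set beside the cholangiocyte markers, and Fxyd1 beside the hepatoblast markers. These markers were picked because they moved in the same direction as the gene. Fxyd3 and Fxyd5 were not set beside markers in this way. E16.5-C, where the cholangiocyte markers were lowest, was also the lowest library for Atp1b1, Atp1b3, Fxyd2, Fxyd3 and Slc12a2. Relative to the geometric mean of the 8 cholangiocyte markers in the same library, Atp1b1 stood at 1.55, 1.71 and 2.51 in E16.5 libraries A, B and C, then at 1.40, 1.29 and 1.32, so that the E18.5 ratios were the lower ones. Fxyd2 relative to the same markers was 0.030, 0.035 and 0.040 at E16.5 and 0.044, 0.049 and 0.035 at E18.5, with overlap. Slc12a2 stood at 0.23, 0.15 and 0.19 and then at 0.10, 0.12 and 0.15. Atp1b3 stood at 0.28, 0.28 and 0.68 and then at 0.13, 0.18 and 0.16. The geometric mean of the markers thus moved by more than Atp1b1, Slc12a2 and Atp1b3 between the stages. Single markers differed, with log2 differences from 0.69 (Prom1, stages overlapping) to 3.19 (Spp1). Fxyd1 relative to the 8 hepatoblast markers was 0.0105, 0.0104 and 0.0089 at E16.5 and 0.0170, 0.0211 and 0.0144 at E18.5, higher at E18.5 although its TPM was lower. The hepatoblast markers ranged from -2.90 (Afp) to 0.17 (Cebpa), with Hnf4a at -0.62. The part of the cell makeup in these differences was not tested, and these ratios were computed after the values had been seen.

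**Figure D4:**
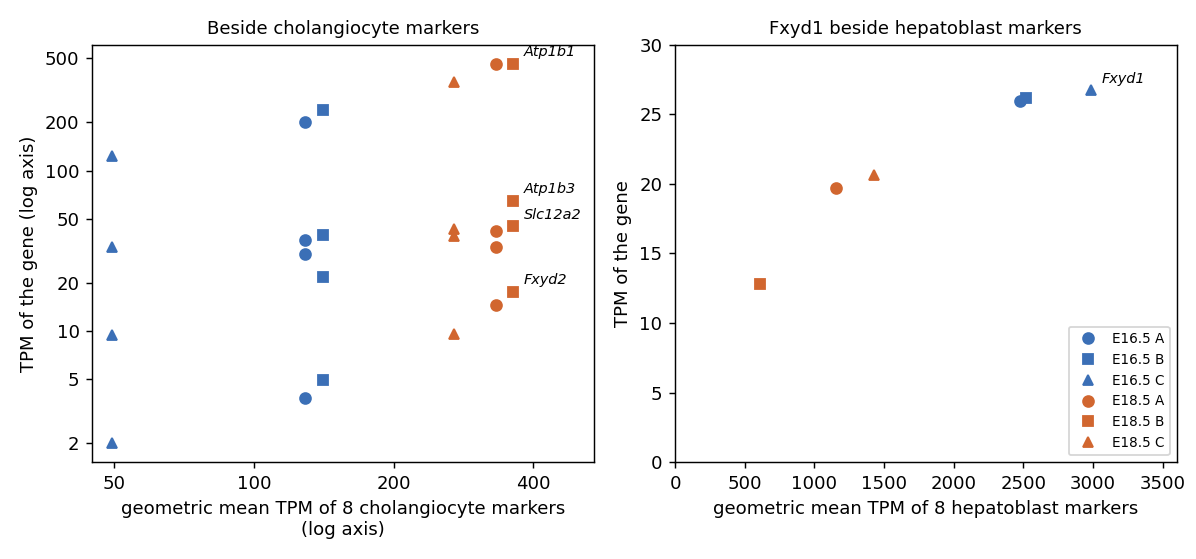
Left, TPM of Atp1b1, Atp1b3, Slc12a2 and Fxyd2 against the geometric mean TPM of 8 cholangiocyte markers (both axes log); right, TPM of Fxyd1 against the geometric mean TPM of 8 hepatoblast markers (both axes linear from 0); 1 point per library. E16.5-C lies at 49.5 TPM of the cholangiocyte markers with the lowest value of all 4 genes, and E18.5-B lies at 607 TPM of the hepatoblast markers with the lowest Fxyd1.

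The genes whose pattern over the 6 libraries came closest to each of the 7 were found by the root mean square difference of centred log2(TPM + 1), among protein-coding genes whose mean reached 5 TPM. For Atp1b1 they were Csrnp3 (0.03) and Sinhcaf (0.04), where the spread of Atp1b1 itself was 0.69. For Fxyd1 they were Hnf4a (0.05), the hepatocyte transcription factor that is also one of the hepatoblast markers, and Enpp2 (0.06), with a spread of 0.35. For Fxyd2 they were Erich5 (0.09) and Jade2 (0.11), for Slc12a2 Usp43 (0.09) and Cacnb3 (0.13), and for Atp1b3 Gcfc2 (0.04) and Cnot11 (0.06). For the low genes they were Helz2 and Cdip1 (0.03 each, Fxyd3), and Borcs5 and Zcchc10 (0.10 each, Fxyd5). With 6 libraries and 11382 or 11383 genes to choose from, such likeness is a description only.

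Of 59 other genes of sodium transport, 46 were tested, and 20 were called higher and 3 lower, with a median log2 difference of 0.56, against 26.0% and 5.22% of all genes tested. Of the 20, Fxyd7 and Scnn1g had E16.5 means under the minimum of 1 TPM and entered only through E18.5. With median-of-ratios scaling 11 were higher and 6 lower, where 6.44% and 10.5% of all genes were, and with quantile scaling 14 were higher and 6 lower, where 8.53% and 8.37% were. Of the beta subunit genes Atp1b2, Atp1b4 and Atp4b and the proton pump genes Atp4a and Atp12a, only Atp1b2 and Atp4a were tested, and neither passed.

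Of the 6 kinases that switch the Slc12 carriers, 4 were called higher, where 26.0% of all genes tested were. Wnk1 (57.2 to 91.2 TPM, log2 difference 0.66), Wnk2 (29.5 to 79.7 TPM, 1.46), Wnk4 (33.1 to 60.6 TPM, 0.85) and Stk39, which encodes the kinase SPAK that phosphorylates NKCC1 (12.4 to 23.3 TPM, 0.87), rose with adjusted p between 0.0141 and 0.0148 (limma). Oxsr1, the close relative of Stk39, had 56.5 and 70.4 TPM (0.31, adjusted p = 0.0874, limma), and Wnk3 had 1.58 and 2.97 TPM (0.64, adjusted p = 0.168, limma). With median-of-ratios scaling Wnk2 and Stk39 were called, both higher, where 6.44% of all genes tested were, and Oxsr1 was at -0.15.

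The epithelial sodium channel and its regulators had 4 of 5 genes called higher, against 26.0% of all genes tested. All 4 remained so with median-of-ratios and with quantile scaling, where 6.44% and 8.53% of all genes tested were called higher. Scnn1b, the beta subunit of the channel, rose from 3.17 ± 1.70 to 24.9 ± 8.58 TPM (log2 difference 2.66, adjusted p = 0.00946, limma). Sgk1, a kinase known to raise channel number at the membrane, rose from 15.2 to 49.1 TPM (1.63), and Nedd4l, the ubiquitin ligase that removes the channel, rose from 29.1 to 64.0 TPM (1.12). Scnn1g, the gamma subunit of the channel, had 0.94 and 4.03 TPM (1.39), and it passed the filter on low values only through E18.5. The adjusted p of these 3 lay between 0.00424 and 0.0150 (limma). Scnn1a, the alpha subunit of the channel, was not called, with means of 2.04 and 3.03 TPM (0.40, adjusted p = 0.201, limma). With median-of-ratios scaling its difference was 0.07.

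Among the sodium-proton exchangers and their scaffold, 1 of 6 tested genes was called higher, where 26.0% of all genes tested were. It was Slc9a7 (3.30 to 7.57 TPM, log2 difference 1.02, adjusted p = 0.0219, limma). With median-of-ratios scaling Slc9a3r1 was the only one called, lower, where 10.5% of all genes tested were called lower. Slc9a3r1, which encodes the apical scaffold NHERF1, had 245 ± 3.89 and 197 ± 13.8 TPM (-0.31, adjusted p = 0.0560, limma). Slc9a8 had 18.8 and 24.1 TPM (0.35, adjusted p = 0.0728, limma).

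Of the carriers that take up solutes with sodium, 7 of 19 tested genes were called higher and 3 lower, where 26.0% and 5.22% of all genes tested were. Those that rose include the taurine carrier Slc6a6 (79.0 to 160 TPM, log2 difference 1.02, adjusted p = 0.00822, limma), the neutral amino acid carrier Slc38a2 (137 to 246 TPM, 0.84) and the sodium-calcium exchanger Slc8a1 (16.9 to 43.1 TPM, 1.36), together with the inositol carrier Slc5a3 (0.81) and the creatine carrier Slc6a8 (0.87). The glucose carrier Slc5a1 (2.40 to 11.7 TPM, 2.07) and the glycine carrier Slc6a9 (3.38 to 11.6 TPM, 1.58) rose from low levels. Those that fell were Slc13a3, a dicarboxylate carrier (42.7 to 12.3 TPM, -1.79), Slc1a4 (67.4 to 27.2 TPM, -1.34) and Slc38a3, a glutamine carrier of hepatocytes (158 to 56.1 TPM, -1.64). Slc10a1, the bile acid carrier of hepatocytes, had 14.5 TPM in E18.5-B and 112 TPM in E18.5-C (means of 61.1 and 60.1 TPM, adjusted p = 0.629, limma). The adjusted p of the called carriers lay between 0.00822 and 0.0308 (limma). Slc38a4 (572 and 777 TPM, 0.44), Slc38a1 (42.6 and 55.2 TPM, 0.37) and the phosphate carriers Slc20a1 (31.3 and 20.9 TPM, -0.59) and Slc20a2 (60.4 and 49.8 TPM, -0.27) did not pass. With median-of-ratios scaling 5 of these carriers were called higher and 5 lower, where 6.44% and 10.5% of all genes tested were. Slc38a2 (0.37, adjusted p = 0.128) and Slc6a8 (0.43, adjusted p = 0.0827) were then no longer called, while Slc20a2 (-0.73, adjusted p = 0.0164) and the vitamin carrier Slc5a6 (-0.88, adjusted p = 0.0422) were called lower, all by limma.

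**Figure D5:**
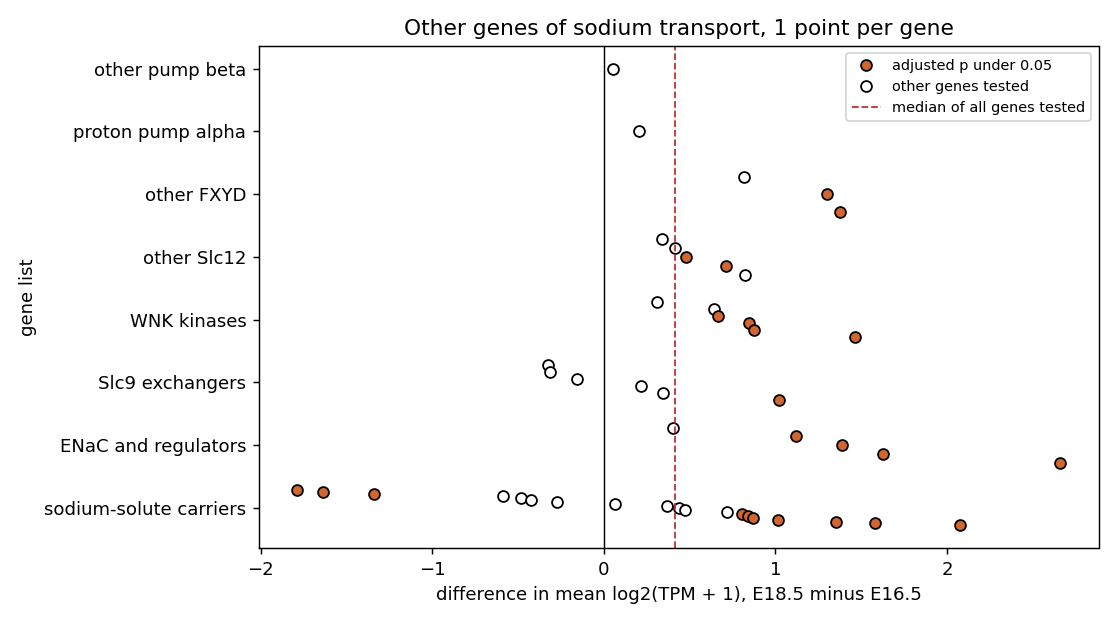
Difference in mean log2(TPM + 1), E18.5 minus E16.5, for the 46 tested genes of 8 lists, 1 point per gene, filled where the adjusted p is under 0.05, with a dashed line at the median of all genes tested (0.42). All 4 filled points of the sodium channel list lie right of the dashed line, and the sodium-solute carriers have filled points on both sides of zero.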

How the data were processed

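RNA from sorted Sox9-GFP cells was sequenced in 3 libraries at each of 2 stages, and stages and replicate letters were taken from the sample labels. Reads were checked with FastQC 0.11.7, trimmed, aligned with HISAT2 2.1.0 to GRCm38 and counted with HTSeq-count on GENCODE vM15, and the authors converted the counts to TPM. The deposited TPM sum to 1000000 per library. TPM share a fixed total, so a few abundant genes can shift all others. Genes were named, located and given exon lengths with GENCODE vM21 (52403 of 52550 identifiers matched, version ignored). Multiplying a TPM by the exon length and dividing by what 1 read is worth gave back the reads, whole within 0.01 for 100% of the 180057 values above 0 of genes with the same version. The vM21 model of Slc12a2 differs, and a length of 6520 bases made all 6 of its values whole. The recovered reads served for depth, counting intervals and one alternative.

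The main test was limma (version 3.58.1, R version 4.3.3; lmFit and eBayes, trend = TRUE) on log2(TPM + 1) for genes whose mean reached 1 TPM, adjusted by Benjamini-Hochberg, threshold 0.05; this scale understates the change of low genes. Ratios inside libraries were tested by two-sided exact permutation (scipy 1.17.1). The fit was tested on simulated data. No 2 libraries of a stage were copies (chi-square per degree of freedom of at least 17.1). The alternatives were a pseudocount of 0.1, no filter, a minimum mean of 5 TPM, median-of-ratios and quantile scaling, a replicate block, eBayes without trend, voom on recovered reads, and leaving out each library. The transcript lengths and marker ratios were added after seeing the data. The 7 genes, the lists and the markers were chosen with earlier results of these data known. Named are the 7 genes, listed genes past the threshold or above 20 TPM in a stage mean, and for each of the 7 the 2 genes nearest in pattern. Atp1b2, Fxyd4, Wnk3, Scnn1a, Slc5a6 and genes overlapping the 7 are named beside these, chosen after their values were seen. Results of some markers are given only as sums. No table of protein sequences was used here. Results of some genes of the lists are not reported here, and the list counts leave them out.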

Additional observations from a re-analysis of the deposited data

How the results depend on the processing

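The count of all genes past the threshold, 7000, was 4282 without the filter on low values, 3795 with median-of-ratios scaling and 3796 with quantile scaling, and with 1 library left out it ran from 1472 (without E18.5-A) to 5686. It was 2917 without E18.5-B, 4082 without E16.5-C and 4376 without E16.5-A. The count among the 6 tested genes, 2, ran from 0 (without E18.5-A) to 3, and was 1 without E18.5-B. The 0 comes from limma, and 5 of the 6 then had an unadjusted p under 0.05, as did 8496 of all 22410 genes tested in that fit. Among alternatives that keep every library, Atp1b1 and Fxyd2 were past the threshold in each. The difference of Atp1b3 was -0.034 with median-of-ratios scaling. That of Fxyd5 was -0.26 with median-of-ratios scaling, -0.34 with quantile scaling and -0.11 with voom, and ran from -0.092 to 0.23 with 1 library left out, negative without E16.5-A (-0.065), E16.5-B (-0.054), E18.5-B (-0.092) or E18.5-C (-0.0071). Its share of the Fxyd sum ran from -1.58 to 0.14 percentage points, higher at E18.5 without E16.5-C. The ratio of Atp1b1 to Atp1b3 and the shares of Fxyd1, Fxyd2, Fxyd3 and Slc12a2 kept their direction in every alternative run. For the ratio of Atp1b1 to Atp1b3, leaving out the length correction could not change the difference, because a fixed length cancels. With the length of 1 transcript, the log2 ratio of Fxyd1 to Fxyd2 at E18.5 was -0.50. Relative to the geometric mean of 8 cholangiocyte markers the log2 differences were -0.49 for Atp1b1, -1.29 for Atp1b3, -0.63 for Slc12a2 and 0.28 for Fxyd2, and relative to 8 hepatoblast markers that of Fxyd1 was 0.80. The cause of these changes was not tested. Deviations of the libraries sharing a letter correlated at -0.04, 0.08 and 0.14, and those with different letters at -0.15 to 0.08. So few values cannot settle whether the letters mark pairs. With the letters as a replicate block 7314 genes were called, 2 of them among the 6, and the block changed no call among these. Depth limits Fxyd3 and Fxyd7, which rest on under 30 reads a library.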
